A study of Mus musculus with 6 samples.

Results

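The 36 genes described here encode the machinery that makes, senses, moves and stores cholesterol and that makes fatty acids. They were chosen by gene symbol, with no threshold on a measured value but with earlier results of these data known. All 36 have a row among the 23420 gene symbols of the count table. By role they are 15 enzymes of sterol synthesis, 5 genes of the SREBP control circuit, 6 genes of fatty acid synthesis, 6 genes of the LXR receptors and their targets, and 4 genes of sterol transport and storage. All 36 passed the minimum of 10 counts over the 6 libraries and were tested. The RNA came from splenic B cells of 3 Ahr+/+ and 3 Ahr-/- mice, all adults older than 8 weeks. The labels give the background as C57Bl/6J for all 6 mice, and the study's methods name the Ahr-/- strain B6.129-Ahr tm1Bra/J. This is a germline allele, so every cell of these animals lacks the receptor from conception, and the allele acts on the B cells and on the animal they developed in. Cells of both genotypes received the same treatment, namely 8 h of culture in IMDM with 5% FCS, α-IgM at 10 μg/ml and IL-4 at 20 ng/ml, with the AhR ligand FICZ at 250 nM during the last 4 h. α-IgM engages the B-cell receptor (BCR). No unstimulated and no ligand-free libraries belong to this comparison, so the values show the genotypes side by side under stimulation and not the response to it.

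Cholesterol is built from acetyl-CoA through the mevalonate pathway, whose isoprenoid units are joined to squalene, closed to lanosterol and trimmed to cholesterol. The transcription factors SREBP-1 and SREBP-2 are held in the endoplasmic reticulum by SCAP and the INSIG proteins while sterol is plentiful, and are released to switch on synthesis and uptake genes when it falls. LXRα and LXRβ are nuclear receptors for oxysterols that act in the other direction and raise genes of cholesterol export, of phospholipid transfer and of fatty acid desaturation. Lymphocytes that leave the resting state need membrane, and induce the SREBP programme for it. AhR is a ligand-activated transcription factor that binds DNA with its partner ARNT at the dioxin response element (DRE).

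Total counts ran from 22095096 to 53648787 per library, and 3 counts correspond to 0.0555 CPM in the deepest library and 0.134 CPM in the shallowest, a floor that covers counting error only. Ahr itself had 12682, 12891 and 13953 normalised counts in Ahr+/+ replicates 1 to 3 and 8856, 8949 and 9717 in Ahr-/- replicates 1 to 3 (log2 fold change −0.52, standard error 0.047, adjusted p = 7.1e-06), and its count sums all exons, deleted or not. The AhR target Cyp1a1 had mean normalised counts by genotype of 5246 ± 242 and 5.36 ± 2.20 (SD, n = 3 mice per genotype). The housekeeping gene Hprt was at 0.013 (adjusted p = 0.89). Cd79b, which encodes a signalling chain of the BCR, had at least 16426 counts in every library. The Y-linked genes Ddx3y, Kdm5d, Uty and Eif2s3y were read in all 6 libraries, and Xist had no more than 11 counts in any. The Y-linked gene Usp9y differed from these, with 0, 0 and 0 counts in Ahr+/+ and 0, 7 and 88 in Ahr-/- replicates 1 to 3.

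The largest change among the 36 genes was the loss of Pltp, which encodes phospholipid transfer protein, to 4.58% of its Ahr+/+ level. Scd1, the stearoyl-CoA desaturase and the most abundant of the genes per exon length, fell to 47.8%. The 15 enzymes of sterol synthesis lay between −0.25 and 0.083 on the log2 scale. By edgeR's quasi-likelihood test with Benjamini–Hochberg adjustment over all tested genes, 13 of the 36 genes had an adjusted p-value under 0.05, or 36.1%, against 17.9% of all 13682 tested genes. Of the 13, 9 were lower in Ahr-/- B cells, as were 8.13% of all tested genes, and 4 were higher, as were 9.79%. These shares describe a list chosen with earlier results of these data known, and are no test of it. The median absolute log2 fold change was 0.11 over the 36 genes and 0.11 over all tested genes, and over the called genes it was 0.25 and 0.36. For 18 of the 36 genes the libraries of one genotype all lay on one side of the other, against 33.5% of all tested genes. Scaling by total counts alone, which raised the median log2 fold change of all genes from 0.0021 to 0.027, changed the split from 9 lower and 4 higher to 5 lower and 5 higher, with Hmgcs1, Idi1, Srebf2 and Soat1 no longer called. The number lower was 5 without Ahr+/+ replicate 1 and 5 without Ahr+/+ replicate 3, and the number higher was 2 without Ahr+/+ replicate 1 and 2 without Ahr-/- replicate 2. As bulk RNA, these values cannot tell fewer cells of a type from less RNA per cell.

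**Figure D1:**
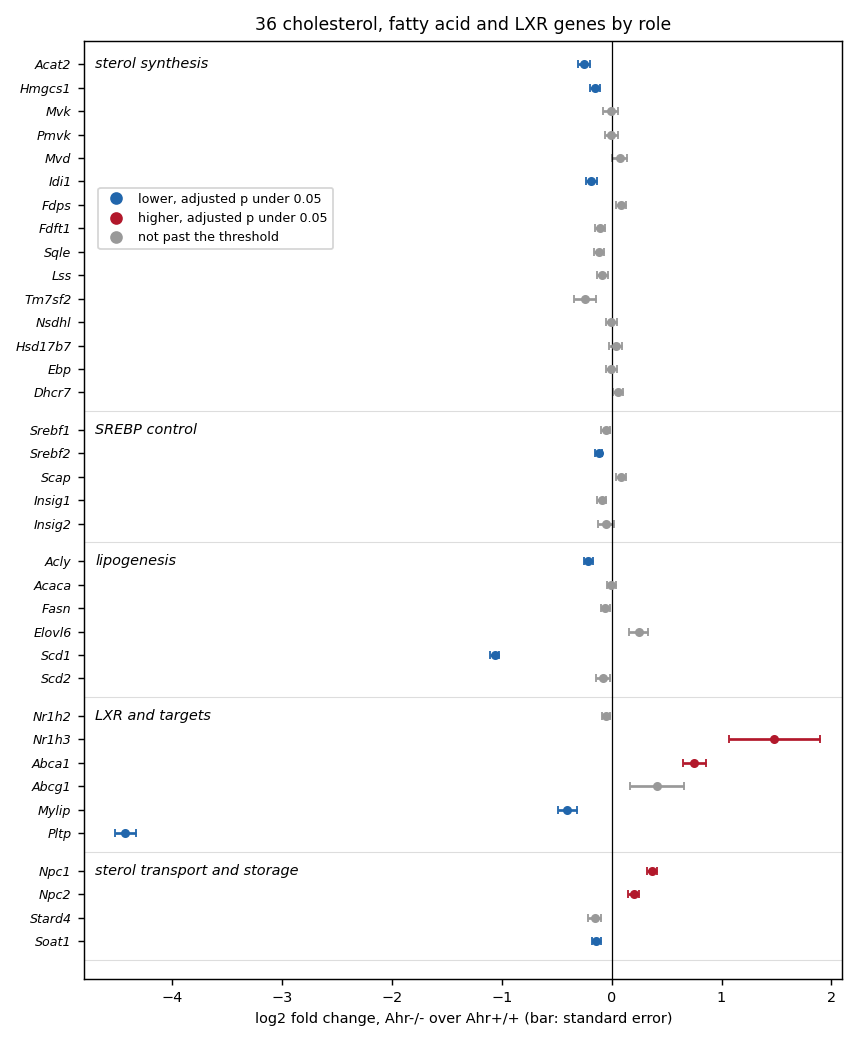
Log2 fold change of each of the 36 genes in Ahr-/- over Ahr+/+ B cells, grouped by role, with the standard error from edgeR as a bar and the colour giving the call at an adjusted p-value under 0.05. Pltp at −4.43 and Scd1 at −1.06 lie far to the left, Nr1h3 and Abca1 lie to the right, and the 15 enzymes of sterol synthesis stay between −0.25 and 0.083.

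Promoter sequences are shown for 5 of the genes that changed, so that the letters searched for can be seen: Pltp for the largest change, Mylip and Abca1 as LXR targets that moved in opposite directions, and Hmgcs1 and Acly as early enzymes of sterol and fatty acid synthesis. Each run covers 250 bases before and 50 after an annotated start, 5′ to 3′ on the strand of the gene, from RefSeq on GRCm38.p6. Capitals mark the core of the DRE, GCGTG read on either strand, and the sterol response element, TCACNCCAC read on either strand, to which SREBPs bind. The windows lie at chr2:164857659-164857958 on the reverse strand, chr13:45389492-45389791 on the forward strand, chr4:53159846-53160145 on the reverse strand, chr13:119690101-119690400 on the forward strand and chr11:100527951-100528250 on the reverse strand.
Pltp: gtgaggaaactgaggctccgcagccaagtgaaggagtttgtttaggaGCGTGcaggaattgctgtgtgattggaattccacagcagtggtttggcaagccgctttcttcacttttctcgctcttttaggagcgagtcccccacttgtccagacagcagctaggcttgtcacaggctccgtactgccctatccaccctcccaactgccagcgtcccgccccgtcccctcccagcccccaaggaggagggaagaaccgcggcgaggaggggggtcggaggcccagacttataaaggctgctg
Mylip: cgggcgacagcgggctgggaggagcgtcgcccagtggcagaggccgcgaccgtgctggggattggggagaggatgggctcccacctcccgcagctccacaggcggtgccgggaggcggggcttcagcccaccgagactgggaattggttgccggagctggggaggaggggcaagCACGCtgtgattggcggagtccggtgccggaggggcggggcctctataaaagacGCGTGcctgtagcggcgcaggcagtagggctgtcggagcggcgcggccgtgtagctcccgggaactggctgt
Abca1: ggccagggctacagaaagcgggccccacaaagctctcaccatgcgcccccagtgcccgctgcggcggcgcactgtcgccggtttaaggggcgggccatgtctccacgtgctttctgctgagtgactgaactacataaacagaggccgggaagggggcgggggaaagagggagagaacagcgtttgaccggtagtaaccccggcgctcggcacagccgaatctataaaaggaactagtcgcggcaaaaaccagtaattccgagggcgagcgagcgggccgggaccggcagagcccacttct
Hmgcs1: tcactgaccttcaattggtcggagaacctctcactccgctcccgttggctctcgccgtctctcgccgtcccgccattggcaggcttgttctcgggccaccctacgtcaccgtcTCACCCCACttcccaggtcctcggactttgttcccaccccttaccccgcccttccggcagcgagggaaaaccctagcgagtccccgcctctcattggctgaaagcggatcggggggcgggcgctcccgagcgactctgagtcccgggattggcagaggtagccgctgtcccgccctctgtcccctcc
Acly: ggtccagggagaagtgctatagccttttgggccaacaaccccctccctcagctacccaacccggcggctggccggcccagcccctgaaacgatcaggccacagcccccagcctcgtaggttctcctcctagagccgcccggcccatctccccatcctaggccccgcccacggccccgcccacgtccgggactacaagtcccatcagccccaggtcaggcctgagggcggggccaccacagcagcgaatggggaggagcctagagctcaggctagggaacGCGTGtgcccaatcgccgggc

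In the Pltp window 1 DRE core begins 203 bases before the start. The Mylip window holds 2, beginning 76 bases before the start on the opposite strand and 22 bases before it on the strand of the gene. The Acly window holds 1 that begins at base 30 of the transcript. The Abca1 and Hmgcs1 windows hold none, and Hmgcs1 alone among the genes searched holds a match to the letters of the sterol response element, 137 bases before its start. RefSeq windows were found for 28 of the 36 genes. Scd1, Scd2, Abcg1, Npc1, Fdps, Fdft1, Sqle and Stard4 had no window. A DRE core lay in a window of 17 of the 28 genes, or 60.7%, and of 35.2% of the 27025 genes with windows of this length. The 27025 include genes not tested here, while all 28 were tested, so the shares are not matched for expression or base composition. Among the 28 genes it was held by 6 of the 8 that were lower, namely Acat2, Acly, Idi1, Mylip, Pltp and Soat1, by 1 of the 3 that were higher, Npc2, and by 10 of the 17 that were not called. The sterol response element was found in 1 of the 28 genes and 1.44% of all genes with windows. CCAAT, the box bound by NF-Y, which works beside SREBP, lay in 21 of the 28 genes, or 75.0%, and in 41.1% of all. It was read on either strand, and each motif was counted without regard to the others. A match is a match of letters and no measure of binding. Only these exact letters in these windows were searched, so a missing match does not show that a gene lacks the element.

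**Figure D2:**
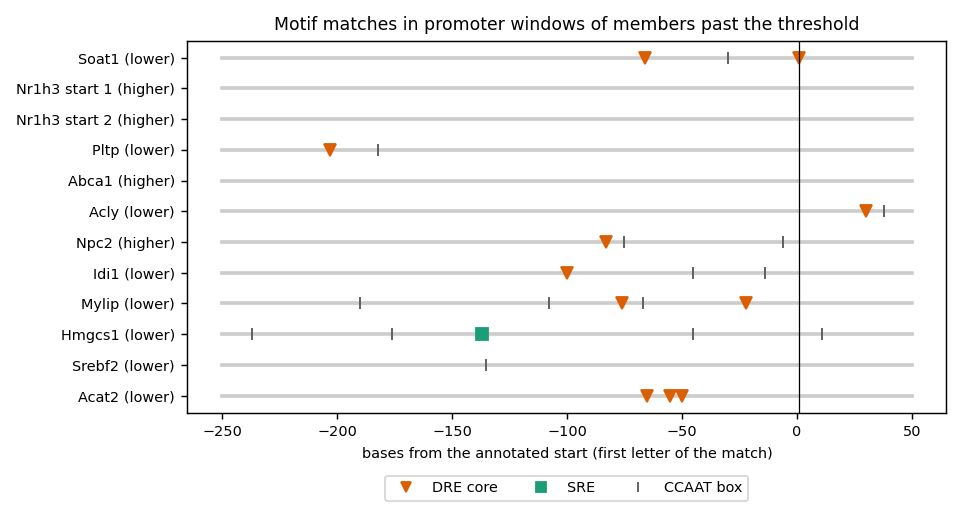
Positions of the DRE core, the sterol response element (SRE) and the CCAAT box, on either strand, in the 300-base windows of the 11 genes past the threshold that have a window, against the distance in bases from the annotated start. Grey bars are windows, and Nr1h3 has 2 annotated starts. Of the 8 lower genes, 6 carry at least 1 DRE core, namely Soat1, Pltp, Acly, Idi1, Mylip and Acat2, while Hmgcs1 and Srebf2 carry none. Of the 3 higher genes Npc2 carries one, while Abca1 and both Nr1h3 starts carry no match of any of the 3 kinds. A DRE core was also held by 10 of the 17 genes not called, which are not drawn.

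Of the 15 enzymes of sterol synthesis, 3 were lower in Ahr-/- B cells, none was higher and 12 did not pass the test, with a median log2 fold change of −0.0093 against 0.0021 over all tested genes. Acat2, an acetyl-CoA acetyltransferase that joins acetyl units at the head of the pathway, had 965, 1021 and 1026 normalised counts in Ahr+/+ replicates 1 to 3 and 841, 822 and 869 in Ahr-/- replicates 1 to 3. Every Ahr-/- library lay below every Ahr+/+ library, with means of 1004 ± 33.8 and 844 ± 23.4 (SD, n = 3 mice per genotype), a difference of −0.25 on the log2 scale (standard error 0.052, adjusted p = 0.0045). The gene lies at chr17:12942890-12960747 of GRCm38, and its adjusted p ran from 0.0024 to 0.034 over 15 alternative analyses.

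Hmgcs1, the cytosolic HMG-CoA synthase of the mevalonate pathway, had 14565, 13882 and 14928 normalised counts in Ahr+/+ replicates 1 to 3 and 13267, 13558 and 12182 in Ahr-/- replicates 1 to 3. The genotypes did not overlap, at means of 14458 ± 531 and 13002 ± 725 (SD, n = 3 mice per genotype), a difference of −0.15 on the log2 scale (standard error 0.045, adjusted p = 0.035). This call was not kept without Ahr+/+ replicate 1 (−0.15), Ahr+/+ replicate 3 (−0.13), Ahr-/- replicate 1 (−0.17) or Ahr-/- replicate 3 (−0.11), where the value in parentheses is the log2 fold change, and the adjusted p ranged from 0.0050 to 0.14 over the alternatives. Idi1, isopentenyl-diphosphate isomerase, had 16144, 15316 and 16293 normalised counts in Ahr+/+ replicates 1 to 3 and 14729, 14462 and 12806 in Ahr-/- replicates 1 to 3. All 3 Ahr-/- libraries were lower, at −0.19 on the log2 scale (standard error 0.051, adjusted p = 0.023), and the call was not kept without Ahr+/+ replicate 1 (−0.18) or Ahr+/+ replicate 3 (−0.17), over a range of adjusted p from 0.0013 to 0.094. Hmgcs1 at chr13:119690379-119708260 shares 557 exon bases, or 12.1%, with the antisense gene Gm48342, and Idi1 at chr13:8885501-8892451 shares 323 with Gm48574 on the opposite strand. The strand setting of the counting is not given in the sources used here.

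The other 12 enzymes had log2 fold changes between −0.24 and 0.083. Sqle, squalene epoxidase, had 8017, 7759 and 7955 normalised counts in Ahr+/+ replicates 1 to 3 and 7442, 7672 and 6829 in Ahr-/- replicates 1 to 3, a difference of −0.11 (adjusted p = 0.11) with a 95% interval of −0.20 to −0.025. Fdft1, squalene synthase, had 3842, 3840.4 and 3895 against 3820.4, 3552 and 3425 normalised counts and a log2 fold change of −0.10 (adjusted p = 0.13). Its exons share 774 bases with Ctsb on the opposite strand, and Ctsb was higher in Ahr-/- B cells (log2 fold change 0.31, standard error 0.060, adjusted p = 0.0030). Sqle and Fdft1 were lower in every Ahr-/- library without passing the test, as was Tm7sf2, a sterol reductase, at −0.24 (adjusted p = 0.13). Fdft1 passed without Ahr-/- replicate 1, with a log2 fold change of −0.14. Over all alternatives its adjusted p ran from 0.039 to 0.33.

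In the mevalonate part, the kinases Mvk and Pmvk and the decarboxylase Mvd had log2 fold changes of −0.0093, −0.0035 and 0.072, with 95% intervals of −0.14 to 0.12, −0.12 to 0.11 and −0.062 to 0.21. Fdps, farnesyl diphosphate synthase, was at 0.083 (adjusted p = 0.25). It shares 26.7% of its exon bases with the annotated gene Gm43738 on the same strand, between which a count cannot decide. After squalene, Lss, which closes the ring to lanosterol, was at −0.085 (adjusted p = 0.29). Nsdhl, Hsd17b7, Ebp and Dhcr7, which work on the methyl groups and double bonds of the sterol, were at −0.0016, 0.036, −0.0037 and 0.058, with adjusted p-values of 0.99, 0.74, 0.97 and 0.47. The genotypes overlapped for all of these 9 enzymes.

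Of the 5 SREBP control genes, only Srebf2 passed the test. Srebf2, which encodes SREBP-2, the main driver of sterol synthesis genes, had 28223, 28512 and 28179 normalised counts in Ahr+/+ replicates 1 to 3 and 25281, 25877 and 27058 in Ahr-/- replicates 1 to 3. For this gene, at chr15:82147181-82205379, the Ahr-/- libraries were lower without overlap, at 28304 ± 181 and 26072 ± 904 (SD, n = 3 mice per genotype), a difference of −0.12 on the log2 scale (standard error 0.035, adjusted p = 0.033). The call was kept without Ahr-/- replicate 3 and not kept without Ahr+/+ replicate 1 (−0.12), Ahr+/+ replicate 2 (−0.11), Ahr+/+ replicate 3 (−0.12), Ahr-/- replicate 1 (−0.096) or Ahr-/- replicate 2 (−0.11), with adjusted p from 0.0059 to 0.14 over the alternatives. Srebf1, which encodes SREBP-1, a factor for fatty acid genes and itself a known LXR target, had 4297, 4443 and 4267 normalised counts in Ahr+/+ replicates 1 to 3 and 4239, 4005 and 4304 in Ahr-/- replicates 1 to 3. The genotypes overlapped, and the log2 fold change of −0.053 (adjusted p = 0.43) had a 95% interval of −0.13 to 0.027.

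Insig1, an SREBP target that retains SCAP in the endoplasmic reticulum, had 8748, 8139 and 8759 against 8073, 8143 and 7888 normalised counts and a log2 fold change of −0.089 (adjusted p = 0.15), which passed without Ahr+/+ replicate 2 at −0.12. Over all alternatives its adjusted p ran from 0.045 to 0.37. Its paralog Insig2 was at −0.052 (adjusted p = 0.68) and Scap, the SREBP escort, at 0.081 (adjusted p = 0.27). The genotypes overlapped for these 3 genes.

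Of the 6 genes of fatty acid synthesis, Scd1 and Acly were lower and 4 did not pass the test. Scd1 puts the first double bond into stearate and palmitate and is a target of both SREBP-1 and LXR. It had 49405, 49271 and 48843 normalised counts in Ahr+/+ replicates 1 to 3 and 24435, 21814 and 24295 in Ahr-/- replicates 1 to 3. All 3 Ahr-/- libraries lay far below the Ahr+/+ libraries. The means were 49173 ± 293 and 23514 ± 1475 (SD, n = 3 mice per genotype), a difference of −1.06 on the log2 scale (standard error 0.043, adjusted p = 3.8e-09), and the log2 fold change stayed between −1.09 and −1.01 over all alternatives. By size it ranked 201 of the 1113 genes that were lower. Scd1 lies at chr19:44394455-44407879 and has no annotated exon overlap with another gene.

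Scd2, the neighbouring desaturase on the same chromosome at chr19:44293674-44306864, had 3124, 3297 and 3380.4 normalised counts in Ahr+/+ replicates 1 to 3 and 3225, 3339.6 and 2724 in Ahr-/- replicates 1 to 3. Its libraries overlapped between genotypes, and the log2 fold change of −0.078 (adjusted p = 0.48) had a 95% interval of −0.21 to 0.050, which does not reach the values of Scd1. The 2 desaturases are close paralogs, and how reads that fit both were counted is not given in the sources used here.

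Acly, ATP-citrate lyase, which supplies acetyl-CoA to both pathways, had 20105, 21628 and 21316 normalised counts in Ahr+/+ replicates 1 to 3 and 17679, 18611 and 18144 in Ahr-/- replicates 1 to 3. The gene lies at chr11:100476353-100528000. Each Ahr-/- library was below each Ahr+/+ library, at 21016 ± 804 and 18145 ± 466 (SD, n = 3 mice per genotype), a difference of −0.21 on the log2 scale (standard error 0.038, adjusted p = 0.0018), and the adjusted p ran from 1.2e-06 to 0.014 over the alternatives. Acaca and Fasn, which follow it on the way to palmitate, did not pass the test. Acaca, acetyl-CoA carboxylase, was at −0.0027 (adjusted p = 0.97) with a 95% interval of −0.087 to 0.082, and Fasn, fatty acid synthase, was at −0.057 (adjusted p = 0.37) with −0.13 to 0.020. Elovl6, which lengthens palmitate, had 319.6, 321 and 303 against 357, 410.2 and 346 normalised counts. It was higher in every Ahr-/- library at 0.25 (adjusted p = 0.071), short of the threshold, and passed it with scaling by total counts and without Ahr-/- replicate 3, where the log2 fold change was 0.30. With each library left out in turn, the value for Elovl6 ranged from 0.16 to 0.30, and the adjusted p over all alternatives from 0.036 to 0.34. The lowest value was the one without Ahr-/- replicate 2.

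**Figure D3:**
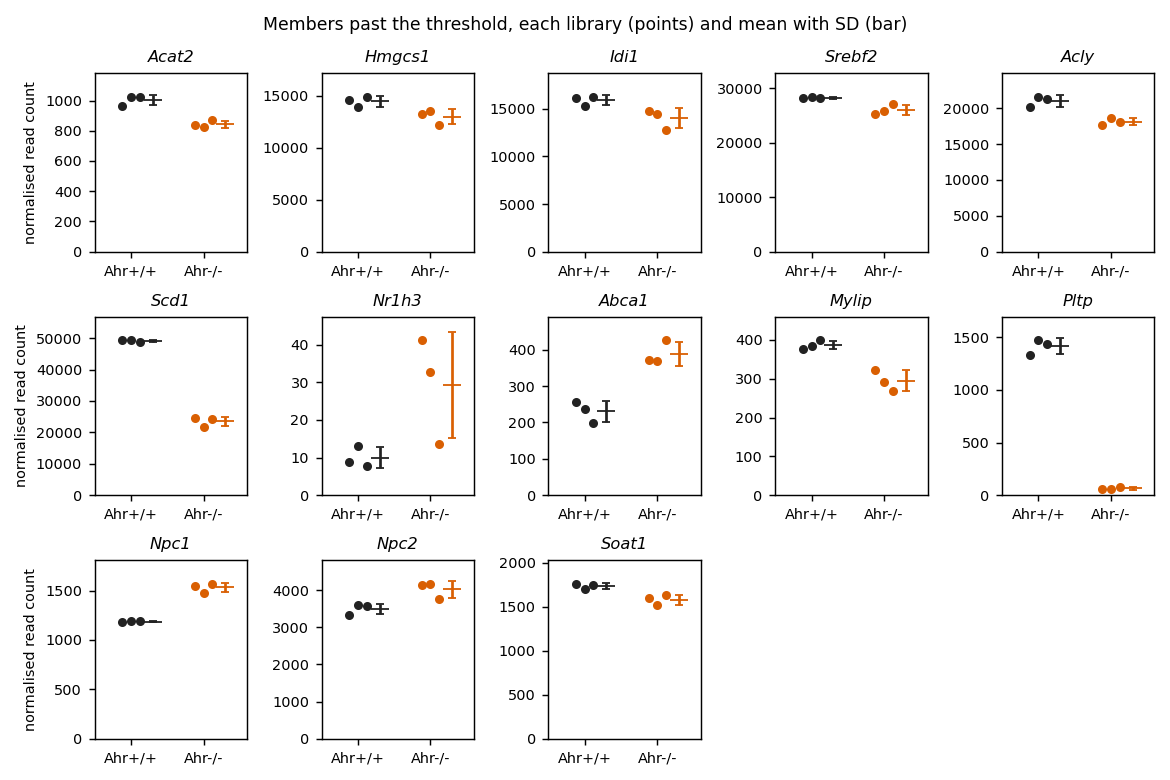
Normalised read count of the 13 genes past the threshold in each of the 3 Ahr+/+ (black) and 3 Ahr-/- (orange) libraries, with the mean and SD beside the points and each axis starting at 0. The genotypes are separate in every panel, widely for Pltp, Scd1, Abca1 and Npc1, and by less than 1 normalised count for Nr1h3.

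Of the LXR receptors and their targets, Pltp and Mylip were lower, Abca1 and Nr1h3 were higher, and Abcg1 and Nr1h2 did not pass the test. Pltp moves phospholipid between lipoproteins and is raised by LXR in macrophages and liver. It had 1332, 1474 and 1439.8 normalised counts in Ahr+/+ replicates 1 to 3 and 56.6, 60.4 and 77.5 in Ahr-/- replicates 1 to 3. The means were 1415 ± 74.3 and 64.9 ± 11.1 (SD, n = 3 mice per genotype), a difference of −4.43 on the log2 scale (standard error 0.094, adjusted p = 7.6e-12), or 21.5-fold lower. Pltp ranked 20 among the 1113 lower genes by size, and its log2 fold change stayed between −4.58 and −4.34 over all alternatives. All Ahr-/- libraries were above the floor, with 33, 85 and 85 counts.

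The Pltp gene lies on the reverse strand at chr2:164839518-164857711, and its exons share 495 bases, or 19.3%, with Ctsa, the lysosomal protective protein, on the forward strand at chr2:164832873-164841032. Ctsa was also lower, with 7567, 7906 and 7799 normalised counts in Ahr+/+ replicates 1 to 3 and 4593, 4694 and 4965 in Ahr-/- replicates 1 to 3 (log2 fold change −0.71, standard error 0.041, adjusted p = 1.1e-07). The difference between the genotypes in mean normalised counts was larger for Ctsa than for Pltp, while the Ahr-/- level stayed at 61.2% of Ahr+/+ for Ctsa and 4.58% for Pltp. If reads of the shared part were given to the wrong gene, both values would be touched, which was not tested.

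Abca1, the transporter that hands cholesterol to apolipoprotein A-I and the best known LXR target, had 256, 236 and 199 normalised counts in Ahr+/+ replicates 1 to 3 and 371, 369 and 427 in Ahr-/- replicates 1 to 3. For Abca1, at chr4:53030787-53159895, every Ahr-/- library was higher, at 231 ± 29.3 and 389 ± 32.9 (SD, n = 3 mice per genotype), a difference of 0.75 on the log2 scale (standard error 0.105, adjusted p = 2.5e-04). This is a level 1.68-fold higher, and the adjusted p ran from 2.0e-07 to 0.0021 over the alternatives. Abcg1, which passes cholesterol to mature high-density lipoprotein, had 38.9, 67.4 and 74.1 normalised counts in Ahr+/+ replicates 1 to 3 and 89.2, 91.0 and 60.2 in Ahr-/- replicates 1 to 3. The genotypes overlapped, and its log2 fold change of 0.41 (adjusted p = 0.29) had a 95% interval of −0.064 to 0.89. With each library left out in turn, the value for Abcg1 ranged from 0.17 to 0.59, and the adjusted p over all alternatives from 0.10 to 0.67. The lowest value was the one without Ahr+/+ replicate 1.

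Mylip, a ubiquitin ligase also called IDOL that marks lipoprotein receptors for degradation, had 378, 383 and 399.8 normalised counts in Ahr+/+ replicates 1 to 3 and 323, 293 and 269 in Ahr-/- replicates 1 to 3. The gene, at chr13:45389742-45412022, was lower in all 3 Ahr-/- libraries, at 387 ± 11.4 and 295 ± 26.9 (SD, n = 3 mice per genotype), a difference of −0.40 on the log2 scale (standard error 0.084, adjusted p = 0.0050), and the adjusted p ran from 0.0018 to 0.028 over the alternatives. The LXR targets Pltp, Mylip and Scd1 were thus lower while Abca1 was higher, and the difference between these changes was not tested beyond each gene's own test.

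Nr1h2, which encodes LXRβ, had 5613, 5731 and 5455 normalised counts in Ahr+/+ replicates 1 to 3 and 5344, 5448 and 5422 in Ahr-/- replicates 1 to 3 and a log2 fold change of −0.051 (adjusted p = 0.40) with a 95% interval of −0.12 to 0.021. Its Ahr-/- libraries were all below the Ahr+/+ libraries, by little. Nr1h3 at chr2:91184061-91202834, which encodes LXRα, the receptor of macrophages and liver, was near the floor of detection. Its libraries held 9, 13 and 7 counts in Ahr+/+ and 24, 46 and 15 in Ahr-/- B cells, or 8.74, 13.1 and 7.86 against 41.2, 32.7 and 13.7 normalised counts. The lowest Ahr-/- library hardly exceeded the highest Ahr+/+ library. Nr1h3 thus differed by 1.48 on the log2 scale (standard error 0.417, adjusted p = 0.027), and the call was not kept without Ahr+/+ replicate 1 (1.39), Ahr+/+ replicate 3 (1.35), Ahr-/- replicate 1 (1.25) or Ahr-/- replicate 2 (1.31), with adjusted p from 0.0013 to 0.12 over the alternatives.

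Transcripts of other cells were measured beside these genes. Of 14 macrophage and monocyte markers, 1 was higher, Cd14, and 1 was lower, Emr1, which encodes F4/80. Their summed level was 1306 to 1784 normalised counts in the Ahr+/+ and 802 to 1449 in the Ahr-/- libraries. Emr1 fell from 649.7 ± 14.7 to 54.1 ± 16.1 normalised counts (SD, n = 3 mice per genotype). Without Emr1, a sum taken after seeing the data, the other 13 markers held 653 to 1122 normalised counts in the Ahr+/+ and 767 to 1385 in the Ahr-/- libraries. Among the Ahr-/- libraries, replicate 3 held the least of 13 of the 14 macrophage and monocyte markers, of 7 of 7 neutrophil markers and of 5 of 5 tested erythroid markers, and it also held the least Nr1h3. The complement genes C1qa, C1qb and C1qc of tissue macrophages held no more than 12 counts in any library. Abca1 did not follow this order and was highest in Ahr-/- replicate 3. Of 10 markers of plasmacytoid dendritic cells 8 were higher and 1 was lower, and their sum, which includes Tcf4, the lower one, was 10806 to 11689 normalised counts in the Ahr+/+ and 9594 to 10258 in the Ahr-/- libraries. Without Tcf4, a sum also taken after seeing the data, the other 9 held 3597 to 4155 normalised counts in the Ahr+/+ and 4769.5 to 5839 in the Ahr-/- libraries, higher without overlap. The median log2 fold change of the 10 was 1.38, with Siglech at 2.23 (adjusted p = 2.1e-07) and Klk1 at 2.19 (adjusted p = 7.9e-05). Of 9 markers of conventional dendritic cells 6 were higher and 1 was lower, at a sum of 8945 to 9713 normalised counts in the Ahr+/+ and 10939.5 to 12453 in the Ahr-/- libraries and a median log2 fold change of 0.73. Of 10 B-cell markers 6 were higher and 1 was lower, at 340821 to 357908 normalised counts in the Ahr+/+ and 367026 to 410778 in the Ahr-/- libraries. Of 7 T-cell markers 2 were lower, Cd3e and Cd28, and of 5 plasma cell markers 2 were lower and 2 higher. The 7 neutrophil markers summed to 79.6 to 131 normalised counts in the Ahr+/+ and 50.1 to 260.2 in the Ahr-/- libraries, and the 8 erythroid markers to 19.4 to 97.6 normalised counts in the Ahr+/+ and 24.6 to 118 in the Ahr-/- libraries, with Hba-a1, Hba-a2 and Hbb-b1 at 0 in all. The part of other cells in the values of Nr1h3 and Abca1 was not tested.

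**Figure D4:**
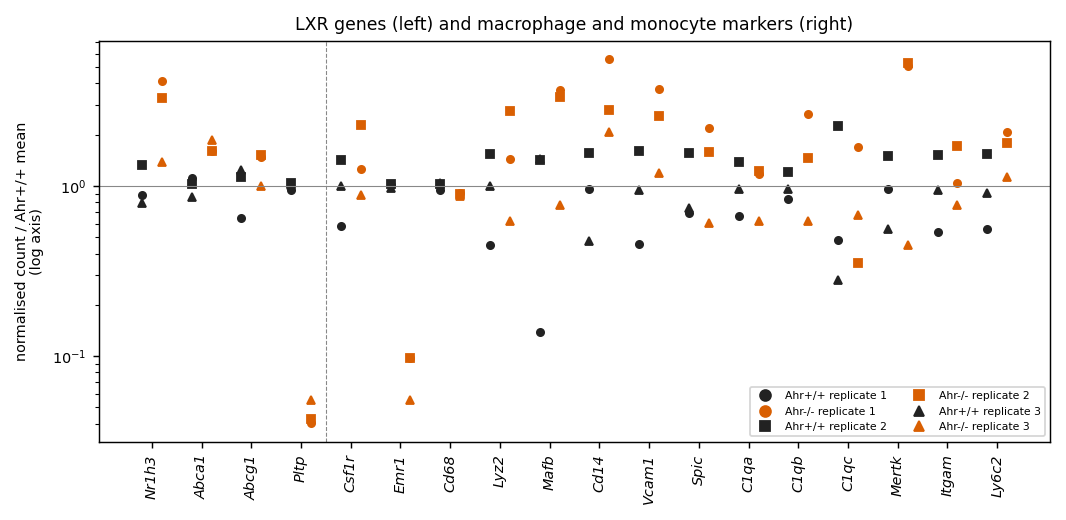
Normalised count of 4 LXR genes and 14 macrophage and monocyte markers in each library, divided by the mean of the Ahr+/+ libraries of that gene, on a log axis, with the symbol giving the replicate number. Ahr-/- replicate 3 is the lowest of the Ahr-/- libraries for Nr1h3 and for 13 of the 14 markers, and Pltp and Emr1 are the genes far below 1 in all 3 Ahr-/- libraries.

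Of the 4 genes of sterol transport and storage, Npc1 and Npc2 were higher, Soat1 was lower and Stard4 did not pass the test. NPC1 and NPC2 are the membrane and the soluble protein that pass cholesterol out of the lysosome. Npc1 had 1178, 1188 and 1190.5 normalised counts in Ahr+/+ replicates 1 to 3 and 1548, 1478 and 1570.1 in Ahr-/- replicates 1 to 3. All 3 Ahr-/- libraries were higher, at 1186 ± 6.52 and 1532 ± 48.1 (SD, n = 3 mice per genotype), a difference of 0.37 on the log2 scale (standard error 0.044, adjusted p = 7.1e-05), with an adjusted p from 1.9e-07 to 7.2e-04 over the alternatives. Npc2, at chr12:84754562-84773152, had 3329.7, 3588 and 3565 normalised counts in Ahr+/+ replicates 1 to 3 and 4124, 4175 and 3751 in Ahr-/- replicates 1 to 3, also without overlap, at 3494 ± 143 and 4017 ± 231 (SD, n = 3 mice per genotype), a difference of 0.20 on the log2 scale (standard error 0.049, adjusted p = 0.013). Its call was not kept without Ahr+/+ replicate 1 (0.17) or Ahr-/- replicate 2 (0.17), over adjusted p from 0.0014 to 0.073.

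Soat1 esterifies cholesterol for storage in droplets, and had 1761, 1698 and 1747 normalised counts in Ahr+/+ replicates 1 to 3 and 1594, 1514 and 1628 in Ahr-/- replicates 1 to 3. The gene, at chr1:156424525-156474331, was lower in every Ahr-/- library at 1736 ± 33.0 and 1579 ± 58.3 (SD, n = 3 mice per genotype), a difference of −0.14 on the log2 scale (standard error 0.043, adjusted p = 0.044), the call closest to the threshold among the 13. The value was −0.14 and not past the threshold by DESeq2, and the call was not kept without Ahr+/+ replicate 1 (−0.13), Ahr+/+ replicate 3 (−0.13), Ahr-/- replicate 1 (−0.14) or Ahr-/- replicate 2 (−0.11), with adjusted p from 0.028 to 0.24. Stard4, a carrier of cholesterol through the cytosol and an SREBP target, was at −0.15 (adjusted p = 0.11) with overlapping libraries. It passed without Ahr-/- replicate 2 at −0.23. With each library left out in turn, the value for Stard4 ranged from −0.23 to −0.091, and the adjusted p over all alternatives from 0.015 to 0.28. The smallest change was the one without Ahr-/- replicate 3.

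On the scale of RPKM, reads per kilobase of annotated exon scaled to sequencing depth, which lets genes be compared, levels spanned more than 3 powers of 10. Scd1 was the highest at 262 ± 1.56 in Ahr+/+ and 125 ± 7.84 in Ahr-/- B cells, each with its SD over 3 mice, and kept the first place in Ahr-/- B cells, closer there to Idi1 at 118 ± 3.91 in Ahr+/+ and 104 ± 7.73 in Ahr-/- B cells. Next came Acly at 104 ± 3.96 in Ahr+/+ and 89.4 ± 2.30 in Ahr-/- B cells and Srebf2 at 103 ± 0.655 in Ahr+/+ and 94.4 ± 3.28 in Ahr-/- B cells, which did not differ beyond their spread in Ahr+/+ B cells and changed places in Ahr-/- B cells. Srebf2 was thus above Srebf1, at 20.0 ± 0.436 in Ahr+/+ and 19.3 ± 0.726 in Ahr-/- B cells, and Nr1h2, at 43.4 ± 1.07 in Ahr+/+ and 41.9 ± 0.418 in Ahr-/- B cells, was far above Nr1h3, at 0.102 ± 0.0289 in Ahr+/+ and 0.302 ± 0.146 in Ahr-/- B cells. Scd1 exceeded Scd2, at 15.6 ± 0.623 in Ahr+/+ and 14.7 ± 1.56 in Ahr-/- B cells, in both genotypes. Pltp dropped from place 19 to place 34 of 36 in this order, with 14.4 ± 0.754 in Ahr+/+ and 0.659 ± 0.113 in Ahr-/- B cells. The lengths come from GENCODE M21 and not from the annotation used in counting, so these levels are approximate between genes.

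**Figure D5:**
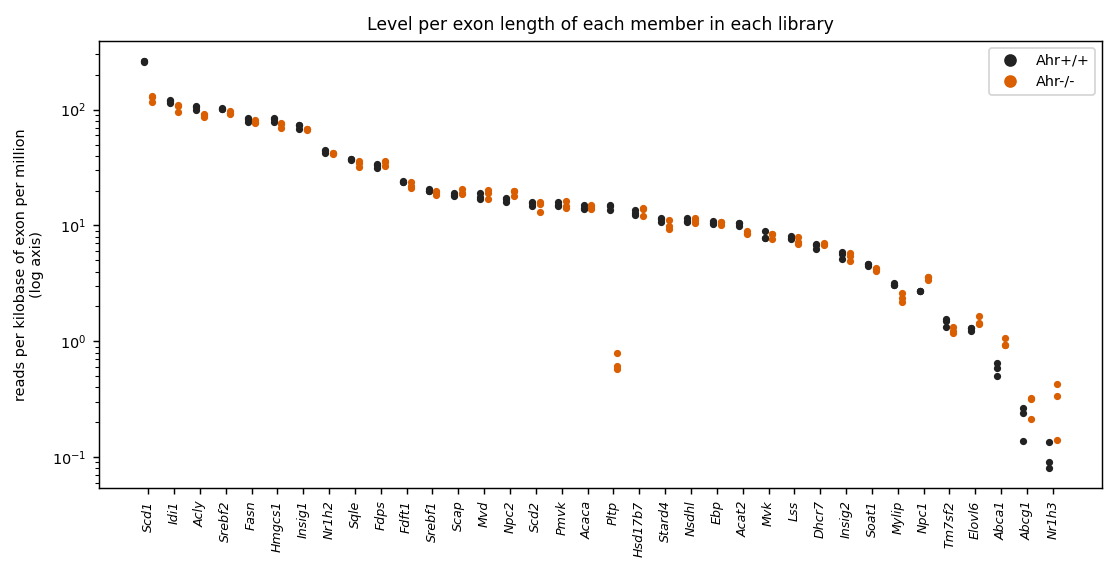
RPKM of the 36 genes in each Ahr+/+ (black) and Ahr-/- (orange) library, on a log axis, in the order of the Ahr+/+ mean. Pltp stands out in the middle of the order by its drop in all 3 Ahr-/- libraries, and Nr1h3, Abcg1 and Abca1 form the low end.

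Another 53 genes of these pathways, listed by name with earlier results of these data known, were counted beside the 36. Of these, 44 were tested, 8 were lower, 7 were higher and 29 did not pass, a share of 34.1% called against the 17.9% of all tested genes. Their median log2 fold change was 0.034, against 0.0021 over all tested genes. In sterol synthesis and uptake, Cyp51, which demethylates lanosterol, was lower at −0.15 (adjusted p = 0.029). Scarb1, a receptor for high-density lipoprotein, and Lrp8, a lipoprotein receptor, were higher at 0.45 (adjusted p = 1.1e-05) and 0.38 (adjusted p = 0.011). Scarb1 had 1609, 1696 and 1545 normalised counts in Ahr+/+ replicates 1 to 3 and 2265, 2209 and 2180.1 in Ahr-/- replicates 1 to 3, with every Ahr-/- library higher. The call of Cyp51 was not kept without Ahr+/+ replicate 1 (−0.13), Ahr+/+ replicate 3 (−0.14), Ahr-/- replicate 2 (−0.17) or Ahr-/- replicate 3 (−0.12), nor with scaling by total counts alone (−0.13). The call of Lrp8 was not kept without Ahr-/- replicate 2 (0.28).

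Among 11 genes of fatty acid synthesis and desaturation, Elovl5, an elongase of polyunsaturated fatty acids, Lpin1, a phosphatidate phosphatase, and Aacs, which activates acetoacetate, were lower at −0.41 (adjusted p = 6.7e-05), −0.42 (adjusted p = 6.3e-04) and −0.16 (adjusted p = 0.015). The desaturase Fads1 and the acyl-CoA synthetase Acsl3 were higher at 0.48 (adjusted p = 0.014) and 0.23 (adjusted p = 0.029). The call of Fads1 was not kept without Ahr+/+ replicate 1 (0.38), Ahr+/+ replicate 2 (0.44) or Ahr-/- replicate 2 (0.45), and that of Acsl3 without Ahr+/+ replicate 2 (0.18), Ahr+/+ replicate 3 (0.19), Ahr-/- replicate 1 (0.22) or Ahr-/- replicate 2 (0.21). Of 7 tested LXR partners and targets, Apoe was higher at 0.48 (adjusted p = 0.0017) and the transporter Abca7 lower at −0.17 (adjusted p = 0.024), while the LXR partners Rxra and Rxrb were at −0.040 (adjusted p = 0.88) and 0.040 (adjusted p = 0.58). Abca7 did not pass without Ahr+/+ replicate 1 (−0.17), Ahr+/+ replicate 2 (−0.15) or Ahr-/- replicate 2 (−0.13). The LXR target Abcg5 held no more than 2 counts in any library and was not tested. Of the SREBP processing and turnover genes, Fbxw7, which marks nuclear SREBP for degradation, was higher at 0.23 (adjusted p = 0.012).

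In transport and storage, Gramd1a, which carries cholesterol from the plasma membrane to the endoplasmic reticulum, had 5074, 5132 and 5041 normalised counts in Ahr+/+ replicates 1 to 3 and 3120.2, 3410.0 and 3555 in Ahr-/- replicates 1 to 3 and was lower at −0.59 (adjusted p = 2.0e-06), the largest change among these 8 genes. Osbpl2 was lower at −0.16 (adjusted p = 0.027) and the lysosomal lipase Lipa higher at 0.22 (adjusted p = 0.019). The call of Osbpl2 was not kept without Ahr+/+ replicate 1 (−0.16), Ahr+/+ replicate 2 (−0.14) or Ahr-/- replicate 2 (−0.14), by DESeq2 (−0.17) or with scaling by total counts alone (−0.14). The call of Lipa was not kept without Ahr+/+ replicate 1 (0.19), Ahr+/+ replicate 3 (0.23), Ahr-/- replicate 1 (0.19) or Ahr-/- replicate 2 (0.19). Over the whole list, 5 genes were lower without Ahr+/+ replicate 1 and 5 without Ahr-/- replicate 2, and 3 were higher without Ahr-/- replicate 2.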

How the data were processed

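The authors deposited raw counts of reads per gene symbol from stranded mRNA libraries of 6 mice, without normalization. Their processing notes name TopHat2, HTSeq, DESeq and build mm10. Counting settings are not given in the sources used here. A table of normalised counts and a table of the authors' own comparison, with means, fold changes and p-values, were not used.

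Genes whose counts summed to 10 or more were tested in R 4.3.3 with edgeR 4.0.16 (TMM, quasi-likelihood, prior count 0.125, genotype as the only term), with Benjamini–Hochberg adjustment over 13682 genes and calls at an adjusted p-value under 0.05. The procedure was tested on simulated data with 200 changed genes. That test did not examine changes as small as most of those called here, nor genes near the floor. Normalised counts are counts divided by the TMM-scaled library size relative to the mean of the 6. Intervals of 95% are normal intervals from the standard errors, unadjusted. With 3 mice per genotype an exact permutation test cannot go below 0.1. P-values rest on the spread between the 3 mice of each genotype, with the spread of each gene moderated by that of all tested genes. This spread takes in differences between cultures and libraries as well as between mice.

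Alternatives were DESeq2's size factors, total counts alone, leaving the filter out, requiring 10 counts in 3 libraries, the Wald test of DESeq2 1.42.0, a robust fit, a block for replicate number, a threshold of 0.01, a prior count of 2, and each library left out. Positions are from GENCODE M21 (GRCm38), and promoters from RefSeq. The members and lists were chosen with earlier results of these data known. The rule was to name every member, and the other pathway genes that passed, of which 1 is not reported here. Rxra, Rxrb, Abcg5, Siglech, Klk1 and the overlapping genes were named after their values were seen. Of the markers, plasma cell genes were summed over 5 symbols, Igj and Jchain being 1 gene. Msmo1 was read under its older symbol Sc4mol, and 2 of the listed markers had no row.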

Additional observations from a re-analysis of the deposited data

How the results depend on the processing

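Of the 13 called genes, 7 kept their call in all 15 alternatives (Acat2, Acly, Scd1, Abca1, Mylip, Pltp and Npc1), and 6 lost it in at least 1, while none of the 13 changed sign. The number of the 36 genes that were lower was 5 with scaling by total counts alone, 5 at a threshold of 0.01, and 5 to 9 with each library left out. The number higher was 2 at 0.01 and 2 to 5 with each library left out. Among the 44 other pathway genes tested, 4 were lower and 2 higher at 0.01, and 5 to 9 were lower and 3 to 7 higher with each library left out. At 0.01 the number of all genes lower in Ahr-/- was 690 and of all genes higher in Ahr-/- was 783. The causes were not tested.

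Changes of sign were seen for 7 genes that were not called. Scaling by total counts alone gave 0.016 for Mvk, 0.021 for Pmvk, 0.023 for Nsdhl, 0.021 for Ebp and 0.022 for Acaca. With each library left out, the log2 fold change ranged from −0.045 to 0.063 for Mvk, from −0.066 to 0.034 for Pmvk, from −0.000377 to 0.15 for Mvd, from −0.042 to 0.034 for Nsdhl, from −0.025 to 0.021 for Ebp, from −0.034 to 0.030 for Acaca and from −0.14 to 0.0077 for Scd2.

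Deviations of same-numbered mice correlated at −0.030, 0.12 and −0.045, within the range of −0.18 to 0.18 for mice of different numbers. With 3 mice per genotype these values cannot decide whether equal replicate numbers mark pairs. With the replicate block 7 of the 36 genes were lower and 4 higher, Hmgcs1 and Soat1 no longer being called, nor Osbpl2 of the other pathway genes, with 1065 of all genes lower in Ahr-/- and 1239 of all genes higher in Ahr-/-. The macrophage and monocyte summed marker level, Ahr-/- minus Ahr+/+, was −361 normalised counts, and 234 without Emr1. The plasmacytoid dendritic cell summed marker level, Ahr-/- minus Ahr+/+, was −1431 normalised counts, and 1426 without Tcf4. Both alternatives were chosen after seeing the data. Depth limits Nr1h3 and Abcg1, which had the fewest counts of the 36.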
